A study of Mus musculus with 2 samples.

Results

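Adipose tissue near a fracture callus was described here from 118 spots of a spatial transcriptome, out of 6380 spots under tissue in all and 5920 that held 1000 or more unique molecular identifiers (UMIs, each standing for 1 captured probe pair). A Visium spot is a small disc of the section that can cover several cells of different types, so a spot is not a cell. The spots were chosen on measured values. Counts of Adipoq, Plin1 and Cidec were summed in each spot and scaled to counts per 1000000 UMIs (CPM), and the top 2% of the 5920 spots of both sections together were taken. Levels of these 3 genes in the chosen spots are therefore a description of the choice.

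The tissue was the distal tibia callus of 1 control mouse, labelled Nf1[+/flox], and of 1 Nf1Postn mouse, labelled Postn-cre;Nf1[flox/-], both 8 weeks old, taken 10 days after a fracture fixed with an intramedullary pin. Both calluses lay in 1 paraffin block after 3 days in 14% EDTA, and the 2 sections are cuts through that block, although their titles call them biological replicates. By the study, Postn-cre deletes Nf1 in the periosteum, and staining showed periostin protein in a wider part of the callus after injury. The Nf1Postn mouse also lacked 1 Nf1 allele in all of its cells, and the control, by the study's methods, carried no Cre. With 1 mouse per genotype, mouse and genotype cannot be told apart and no test between genotypes was possible, and every interval given is an exact 95% interval that covers counting error only.

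White adipocytes store triglyceride in a large droplet that is coated by perilipin 1 (Plin1) and grows through the fusion protein of Cidec, and they release fatty acids by stepwise lipolysis. They also secrete adiponectin (Adipoq) and complement factor D, or adipsin (Cfd). In the hindlimb, fat lies under the skin, between muscles and along vessels, nerves and tendons, as well as in the marrow cavity.

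The promoters of the 3 genes that chose the spots are shown because these genes define the spots. Each window runs from 250 bases before to 50 bases after a start site, taken from RefSeq on GRCm38.p6, which is an older build than the one named for the deposited tables, and all 3 genes had a window. Capitals mark matches on either strand to 2 of the motifs searched, TTGCNNAA, a form of the C/EBP site, and CCAAT, and these matches do not overlap each other. The Adipoq window is chr16:23146286-23146585 on the plus strand, and the Plin1 window is chr7:79732727-79733026 on the minus strand. For Cidec, which has 2 windows, the one with a match is chr6:113434715-113435014 on the minus strand.
Adipoq: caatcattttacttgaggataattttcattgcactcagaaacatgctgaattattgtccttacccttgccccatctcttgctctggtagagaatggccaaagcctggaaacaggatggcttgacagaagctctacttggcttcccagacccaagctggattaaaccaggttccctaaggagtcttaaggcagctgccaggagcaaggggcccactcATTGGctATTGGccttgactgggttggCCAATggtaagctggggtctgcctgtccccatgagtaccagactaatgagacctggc
Plin1: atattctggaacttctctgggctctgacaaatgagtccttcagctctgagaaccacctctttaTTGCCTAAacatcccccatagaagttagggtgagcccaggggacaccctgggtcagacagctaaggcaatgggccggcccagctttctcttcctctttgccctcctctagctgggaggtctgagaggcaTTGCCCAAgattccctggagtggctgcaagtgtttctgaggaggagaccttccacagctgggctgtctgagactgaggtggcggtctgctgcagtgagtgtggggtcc
Cidec: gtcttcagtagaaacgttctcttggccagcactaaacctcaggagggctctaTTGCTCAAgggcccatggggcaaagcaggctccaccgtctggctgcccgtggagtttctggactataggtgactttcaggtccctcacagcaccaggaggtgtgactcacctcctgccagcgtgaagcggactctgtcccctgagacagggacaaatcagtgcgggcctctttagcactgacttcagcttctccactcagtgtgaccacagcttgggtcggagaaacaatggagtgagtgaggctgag
The Plin1 window held TTGCNNAA at -187 and -58 from the start site and this Cidec window held it at -198. Of 27025 promoters, counted by the first window of each gene, 10.8% held it somewhere. The Cidec match lies in the second window of that gene and so is not in that count. The Adipoq window held CCAAT on the minus strand at -34 and -27 and on the plus strand at -7, while 37.9% of all promoters held this motif. Neither motif was in the other Cidec window or in that of Cfd, and AGGTCA, a site of nuclear receptors found in 16.0% of promoters, was in none of these windows. A match is a description of the letters and not a bound site.

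The 118 adipose spots comprised 46 control and 19 Nf1Postn spots in section 1 and 29 control and 24 Nf1Postn spots in section 2. As a share of spots with 1000 or more UMIs, this was 2.78% (interval, 2.04% to 3.69%) in control and 1.69% (1.02% to 2.62%) in Nf1Postn in section 1. In section 2 the shares were 1.71% (1.15% to 2.45%) in control and 1.66% (1.07% to 2.46%) in Nf1Postn. The control share was 1.65 times the Nf1Postn share in section 1 and 1.03 times in section 2, with intervals that overlapped in both. The ratio depended on the choice, since the pooled log2 ratio was 0.42 for all adipose spots, 0.92 with spots ranked after thinning to equal depth and 1.64 for spots with 3 or more UMIs of the 3 genes. The calluses differed in depth, with a median of 6615 UMIs per kept spot in control and 2888 in Nf1Postn. Adipose spots showed the same gap, with medians of 5811 and 2024.5 UMIs in control and Nf1Postn of section 1 and of 5451 and 3195.5 UMIs in section 2. The sections shared 2711 barcodes, which mark positions of the capture grid and not cells.

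Depth sets how much a single UMI weighs in the choice. The adipose spots held 593 of the 1305 UMIs of the 3 genes (45.4%), and another 528 spots had at least 1 such UMI without being chosen. The last spots inside the limit had 463 CPM (1 UMI of the 3 genes among 2161) and 461 CPM (5 among 10836), and the first spot outside had 458 CPM (3 among 6547.5). Summed CPM of the adipose spots ran from 461 over a median of 724 to 4412, the latter from 33 UMIs in a spot of 7479.5. Adipoq was seen in 104 of the 118 spots, Plin1 in 88 and both in 75, whereas Cidec was seen in 18 and alone in 1 spot.

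**Figure D1:**
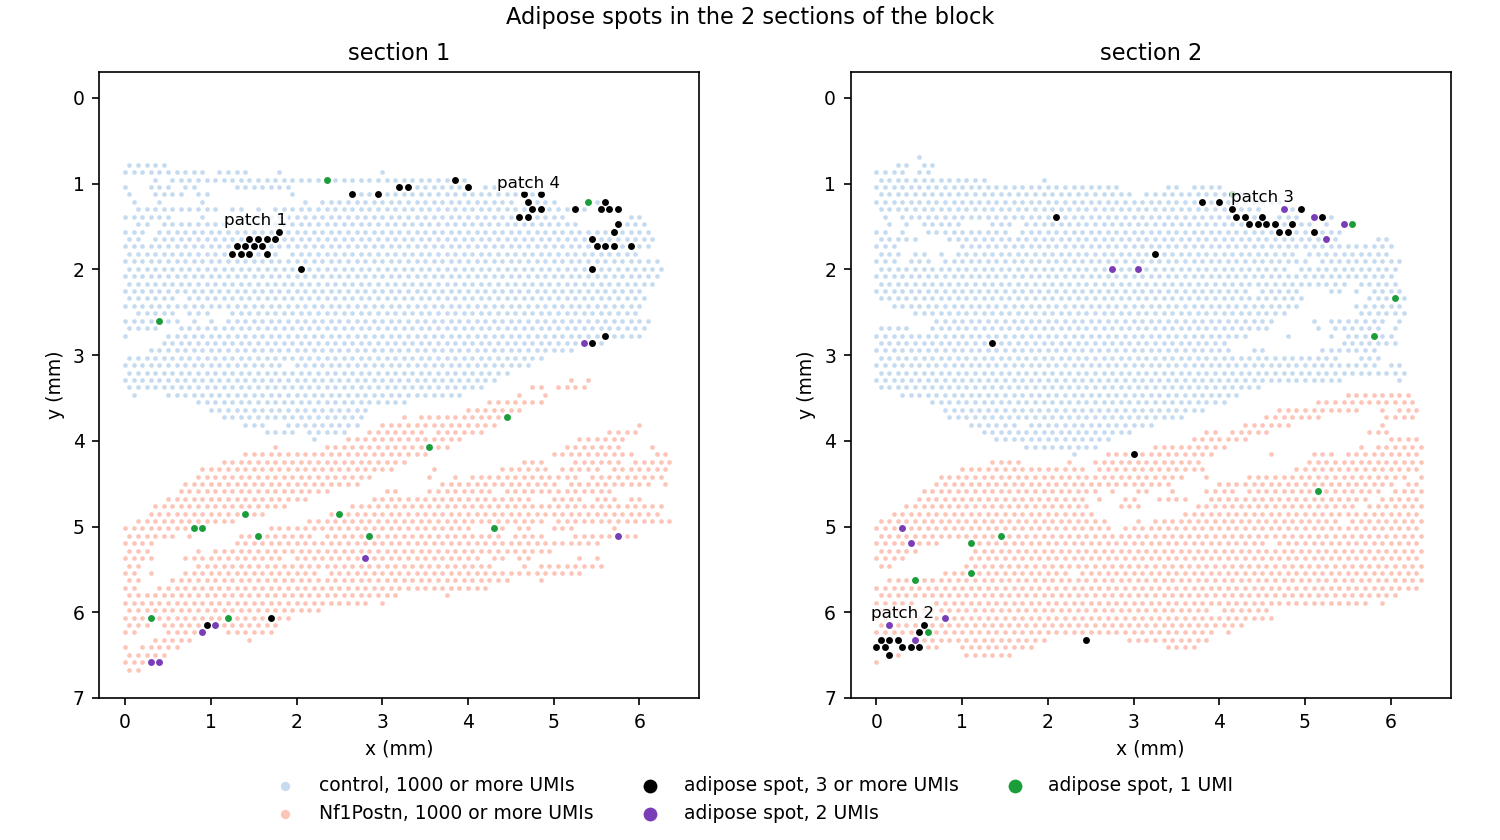
Positions of the 118 adipose spots on the capture grid of section 1 and section 2 (axes in mm), over the control spots (blue) and Nf1Postn spots (red) with 1000 or more UMIs. Black, purple and green points are adipose spots with 3 or more, 2 or 1 UMIs of Adipoq, Plin1 and Cidec, the 4 patches of 5 or more touching spots are named, and 11 of the 24 green points lie in the section 1 Nf1Postn callus.

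The adipose spots fell into 3 classes by the UMIs of these genes that they held. There were 76 spots with 3 or more, 18 with 2 and 24 with 1. The genotypes were spread unequally over the classes, since 61 of 75 control spots but 15 of 43 Nf1Postn spots had 3 or more, and only 2 of the 19 Nf1Postn spots of section 1 did. Cfd had no part in the choice and offers a check of the adipose label. Cfd was at 1002 CPM (920 to 1090) in the spots with 3 or more UMIs, at 417 CPM (264 to 626) in those with 2 and at 93.1 CPM (25.4 to 238) in those with 1. The last value lay at that of unchosen spots with at least 1 UMI of the 3 genes, 104 CPM (94.9 to 113), and spots without any had 21.0 CPM (19.4 to 22.7). Scd1, the main desaturase of fat cells, did likewise, with 473, 417 and 69.8 CPM in the 3 classes and 84.6 CPM in unchosen spots with a UMI. Fabp4, a fatty acid carrier of adipocytes and capillaries, was still higher in the spots with 1 UMI, at 1466 CPM (1126 to 1875), than in unchosen spots with a UMI, at 499 CPM (479 to 520). So was Lipe, hormone-sensitive lipase, at 163 CPM (65.5 to 336, from 7 UMIs) against 49.1 CPM (43.0 to 55.8). The 24 spots with 1 UMI, of which 17 were Nf1Postn, thus had Cfd and Scd1 near the levels of unchosen spots with a UMI, but more Fabp4 and Lipe. Cfd rested on 4 UMIs and Scd1 on 3 there. Their intervals, 25.4 to 238 CPM and 14.4 to 204 CPM, also hold levels well above those of unchosen spots.

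**Figure D2:**
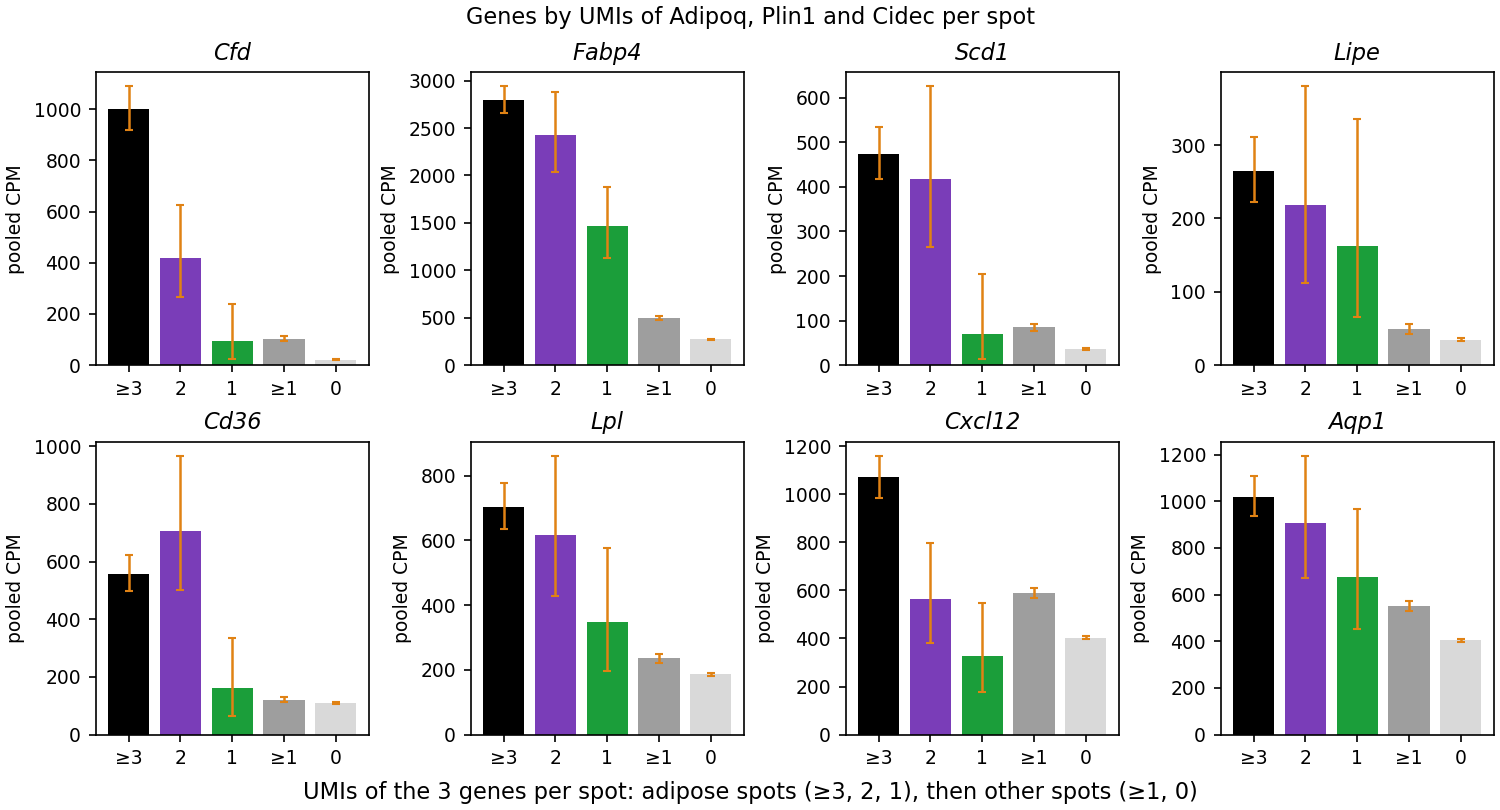
Pooled CPM of 8 genes that did not choose the spots, by the number of UMIs of Adipoq, Plin1 and Cidec in a spot, with exact 95% Poisson intervals as lines on the bars. Cfd goes from 1002 over 417 to 93.1 CPM in the 3 classes of adipose spots, and the class with 1 UMI lies beside the unchosen spots with a UMI (104 CPM).

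Most adipose spots touched another one, and position was not used to choose them. Of the 118 spots, 68 (57.6%) had an adipose spot among their 6 grid neighbors, compared with 330 of 5802 other spots (5.69%). This was so for 33 of 46 control and 7 of 19 Nf1Postn spots in section 1 and for 15 of 29 control and 13 of 24 Nf1Postn spots in section 2. Of the 50 single spots, 20 rested on 1 UMI. Adipose spots also lay often at the rim of the tissue, defined as fewer than 6 neighbors under tissue and thus including the border of the capture area, in 59 of 118 cases (interval, 40.7% to 59.3%) against 20.1% (19.1% to 21.2%) of other spots. The rim share was 43.5% of control and 73.7% of Nf1Postn adipose spots in section 1, where other spots had 17.3% and 28.9%, and 37.9% and 58.3% in section 2, where other spots had 17.0% and 19.9%. The share at the rim was higher in adipose than in other spots of each callus in each section.

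Touching spots formed 4 patches of 5 or more, with 43 adipose spots between them. Patch 1, in the control callus of section 1, had 13 spots over a width of 550 µm, 99 UMIs of the 3 genes and 0 spots at the rim. Patch 2, in the Nf1Postn callus of section 2, also had 13 spots, with 60 UMIs of the 3 genes and 10 spots at the rim. Patch 3 (control, section 2) had 11 spots and patch 4 (control, section 1) had 6. Patches 3 and 4 lay at neighboring grid positions of their sections, which were not aligned to each other here. Spots in the patches held a median of 6 UMIs of the 3 genes and 1 of them rested on 1 UMI, while the 75 spots outside held a median of 2. None of the 19 Nf1Postn spots of section 1 was in a patch.

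Adipose spots overlapped little with the spots richest in cartilage, bone or muscle fiber genes. None was among the 296 spots (5%) richest in cartilage genes or the 296 richest in bone genes, and 1 was among the 296 richest in muscle fiber genes. For granulocyte genes there were 6 among the 296 richest spots, or 5.08% of the adipose and 2.03% of the granulocyte-rich spots, close to the 5% that these spots are of all, and 4 among the 118 richest (3.39% of each). The distance to cartilage-rich spots of the same callus differed between sections. In the control callus its median was 1107 µm for adipose and 458 µm for other spots of section 1, but 608 µm for adipose and 625 µm for other spots of section 2. In Nf1Postn of section 2 it was 1850 µm for adipose and 1735 µm for other spots. All cartilage-rich spots of section 1 lay in the control callus, so Nf1Postn had no such distance there. In Nf1Postn, adipose spots lay nearer than other spots to bone-rich spots, at a median of 346 against 656 µm in section 1 and 447 against 954 µm in section 2. In control the medians to bone-rich spots were 380 against 529 µm in section 1 and 608 µm for both kinds of spots in section 2.

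Outside the 3 genes that made the choice, 296 of 11830 genes (2.5%) were at least 2-fold higher in adipose than in all other kept spots in both sections, and 16 of 2759 (0.58%) were at least 2-fold lower. Both counts are descriptions, because the spots were chosen on genes of the same tissue. A gene entered with 50 or more UMIs in each section, and on the lower side with 20 or more expected in the adipose spots. The pooled interval of the ratio lay above equal levels for 275 of the 296 genes and above 2-fold for 93. Scaling the pooled profiles by trimmed means (TMM) moved the median log2 ratio of all genes from 0.14 to -0.14 and gave 121 higher and 42 lower genes in place of 296 and 16, so that 74.2% of the genes called were higher in place of 94.9%.

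Of the 15 genes with the highest ratios among those called, 8 belonged to the adipocyte lists described below. Slc7a10, a neutral amino acid transporter of white adipocytes, was at 67.0 against 1.57 CPM in section 1 and 52.7 against 1.98 CPM in section 2, a 34.0-fold difference. Pck1, whose enzyme supplies glycerol 3-phosphate for triglyceride in fat, was at 75.4 against 2.30 CPM in section 1 and 59.7 against 1.87 CPM in section 2, or 32.9-fold. Cfd was 27.5-fold higher. The pooled ratio was 16.7-fold for Nnat, 14.6-fold for Adig, which encodes adipogenin, 11.4-fold for Wfdc21, 10.4-fold for Hp, the haptoglobin gene, 10.3-fold for Scd1 and 9.83-fold for Cyp2f2. Fabp4 was 8.81-fold higher, Aqp7, the glycerol channel of adipocytes, 8.45-fold, Thrsp, a lipogenic gene, 7.63-fold, Pparg, the nuclear receptor that drives adipogenesis, 7.44-fold, and Lipe 6.90-fold. The ratios differed between sections for Adig (20.7-fold in section 1 and 8.73-fold in section 2), Aqp7 (16.2-fold and 3.74-fold), Thrsp (11.9-fold and 3.37-fold) and Hp (6.91-fold and 16.6-fold). Dct, a pigment cell enzyme, was 12.0-fold higher. It was 2.32-fold higher from 6 UMIs in section 1 and 21.98-fold higher in section 2, there through 1 patch described below. Several of these genes rested on few UMIs in the adipose spots, such as 21 of Pparg and 31 of Adig, and Pck1, Slc7a10, Adig, Wfdc21, Thrsp and Pparg had 0 in the Nf1Postn spots of section 1.

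Genes of adipocytes were called higher in part. Of 55 genes in 7 lists, 54 were in the tables, 48 passed the minimum, 20 were at least 2-fold higher in both sections and 0 of the 15 with enough UMIs were 2-fold lower. The median log2 ratio of the 48 genes was 1.03, beside 0.14 for all genes tested. Summed over the lists, adipose spots had 10537 CPM in control and 6582 CPM in Nf1Postn of section 1 and 6608 and 9786 CPM in section 2, and other spots had 2933, 2896, 2751 and 3214 CPM. All 4 groups of adipose spots were above all 4 groups of other spots, and control was the higher genotype in section 1 and the lower in section 2.

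Fatty acid uptake had the highest levels. In this list, 5 of 8 genes were higher, with a median log2 ratio of 1.58. Fabp4 was at 3460 CPM (3256 to 3673) in control and 1682 CPM (1336 to 2090) in Nf1Postn of section 1 and at 1834 (1649 to 2033) and 2344 CPM (2035 to 2687) in section 2, against 269 to 344 CPM in other spots. Lpl, the lipase that frees fatty acids from lipoproteins, was at 764 and 851 CPM in section 1 and 472 and 705 CPM in section 2, against 167 to 261 CPM. Cd36, a fatty acid transporter, was at 558 and 478 CPM in section 1 and 432 and 785 CPM in section 2, against 78.4 to 209 CPM. For these 3 genes, each group of adipose spots was above every group of other spots. Gpihbp1, which anchors lipoprotein lipase on capillaries, was 2.78-fold higher, and Acsl1, an acyl-CoA synthetase, was 3.20-fold higher from 22 UMIs. Vldlr, a lipoprotein receptor, was at 71.5 against 126 CPM.

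By median log2 ratio among the adipocyte lists, lipid synthesis and lipolysis followed. In the synthesis list, 5 of the 12 genes past the minimum were higher, namely Fasn, Scd1, Dgat2, Thrsp and Pck1, and the median log2 ratio was 1.34. Scd1 was at 616 CPM (532 to 710) in control and 208 CPM (99.6 to 382) in Nf1Postn of section 1 and at 168 (115 to 235) and 569 CPM (422 to 750) in section 2, against 32.9 to 54.1 CPM in other spots. The order of the genotypes was thus opposite in the 2 sections. In the lipolysis list, 3 of 6 genes past the minimum were higher, namely Pnpla2, Lipe and Aqp7, with a median of 1.29, and with TMM scaling 2 in place of 3 were. Lipe was at 277 and 249 CPM in section 1 and 183 and 330 CPM in section 2, against 33.6 to 44.7 CPM. Pnpla2, whose lipase takes the first step of lipolysis, was at 255 and 104 CPM in section 1 and 168 and 341 CPM in section 2, against 59.3 to 141 CPM, so its groups overlapped. Adrb3, the adrenergic receptor of adipocytes, had 12 UMIs in the adipose spots and did not reach the minimum.

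Regulators and droplet proteins had lower medians than these lists. Of the 6 transcription factors, Pparg and Cebpa were higher, with a median log2 ratio of 0.76, and of 6 droplet protein genes past the minimum, Plin4 and G0s2 were, with a median of 0.62. With TMM or median-of-ratios scaling, 1 transcription factor in place of 2 was higher. Cebpa, which acts with Pparg, was at 226 and 41.5 CPM in section 1 and 168 and 159 CPM in section 2. G0s2, an inhibitor of the lipase of Pnpla2, was 3.81-fold higher. Srebf1, a regulator of lipogenic genes, was at 117 against 120 CPM in section 1 and 112 against 109 CPM in section 2. In the insulin and glucose list, 1 of 6 genes was higher, Trarg1, a regulator of the glucose transporter GLUT4 (4.70-fold), and the median was -0.02. Slc2a4, the gene of that transporter and also a muscle gene, was at 126 against 85.2 CPM in section 1 and 109 against 158 CPM in section 2.

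Adipokine genes split. Of 4 genes past the minimum, Cfd and Rarres2, the chemerin gene, were higher, and the list median was 0.26, or -0.01 with TMM scaling. Cfd was at 1128.5 CPM (1013 to 1253) in control and 311 CPM (174 to 514) in Nf1Postn of section 1 and at 574 (473 to 690) and 1081 CPM (875 to 1321) in section 2, against 16.9 to 49.5 CPM in other spots. Rarres2 was 2.48-fold higher. Lep, the leptin gene, had 8 UMIs in the adipose spots (12.4 against 0.644 CPM), and Retn, the resistin gene, had 13 (20.2 against 1.61 CPM), both under the minimum. Rbp4, which other tissues also make, was at 173 against 388 CPM in section 1 and 190 against 237 CPM in section 2. The thermogenic list had a median of -0.41 and 1 of 6 genes higher, Prdm16, from 9 UMIs. Its sum, led by Cox8b, was highest where muscle fiber genes were highest. It was at 1016 CPM in other Nf1Postn spots of section 2, and at 475 CPM in patch 1 against 57.0 CPM in patch 4. The part of muscle in this median was not tested. Ucp1, the uncoupling protein of brown adipocytes, had 0 UMIs in the adipose spots, with an upper limit of 5.74 CPM, and 1.37 CPM in other spots.

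**Figure D3:**
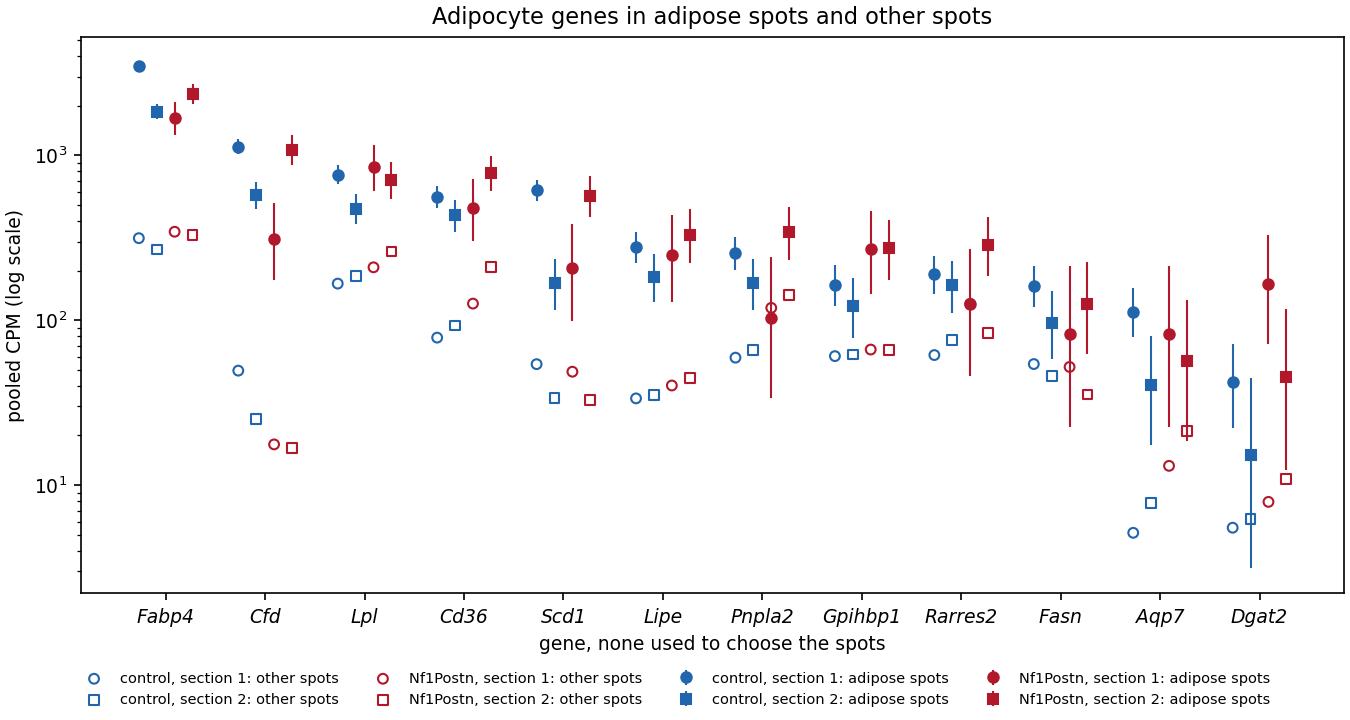
Pooled CPM (log scale) of 12 adipocyte genes that did not choose the spots, in adipose spots (filled, with exact 95% Poisson intervals) and other kept spots (open) of each genotype and section. Fabp4, Cfd, Lpl, Cd36, Scd1 and Lipe are higher in all 4 groups of adipose spots than in any group of other spots, and the order of control and Nf1Postn turns between the sections for all 12 genes but Lpl, Gpihbp1 and Dgat2.

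Spots varied widely in these genes. In the control spots of section 1, Cfd ran from 0 over a median of 1066 to 5615 CPM, and Fabp4 from 0 over 2270 to 21651 CPM. In the Nf1Postn spots of section 1, Cfd ran from 0 over a median of 0 to 1310 CPM, and it was seen in 8 of 19.

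The same genes stood out at equal depth. Cfd was detected in 82 of 118 adipose spots (69.5%; 60.3% to 77.6%) and in 12.0% of other spots, at median depths of 4741 and 4564 UMIs. With each spot thinned to 1000 UMIs, Cfd remained in 40.7% of adipose and 3.03% of other spots. Fabp4 went from 86.4% and 65.8% to 67.8% and 25.3%, and Lpl from 81.4% and 55.1% to 39.0% and 17.8%. Fabp4 and Lpl were thus detected in many spots that were not chosen. A UMI of Adipoq, Plin1 or Cidec was found in 16.0% of control and 4.28% of Nf1Postn kept spots, and in 3.79% and 1.48% after thinning. After thinning, control was above Nf1Postn in both sections, at 4.95% against 1.42% in section 1 and 2.65% against 1.52% in section 2.

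Some genes of vessels and stroma were called higher in adipose spots, although most in these lists were not. The endothelial list had 3 of 8 genes higher, Aqp1, Cdh5 and Vwf, with a median log2 ratio of 1.01, and the mural list had 1 of 5, Myh11, with a median of 0.90. Aqp1, a water channel of vessels, was at 946 against 445 CPM in section 1 and 1036 against 405 CPM in section 2, and Cdh5, VE-cadherin, was at 380 against 186 CPM and 376 against 186 CPM. In the adipose stroma list, 1 of 8 genes past the minimum was higher, Cd34, shared by endothelium and adipose progenitors, at 226 against 109 CPM and 302 against 122 CPM. In the marrow stroma list, 1 of 4 was higher, Ebf3, and the medians of these lists were 0.73 and 1.09. Cxcl12, the chemokine of marrow stroma and endothelium, was at 896 against 471 CPM in section 1, under 2-fold, and at 1078 against 390 CPM in section 2. Lepr, which marks marrow stroma, had 7 UMIs in all adipose spots. With TMM scaling 1 endothelial gene in place of 3 and 0 genes of the adipose stroma in place of 1 were higher.

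Immune genes were higher in part. Macrophage genes had a median log2 ratio of 0.27, or -0.01 with TMM, with 1 of 7 higher, Cd163, a scavenger receptor of resident macrophages, from 17 UMIs, and 0 with TMM or median-of-ratios scaling. The lymphocyte list had 0 of 3 higher and the erythroid list 0 of 4, with medians of 0.32 and -0.00. The inflammation list had 2 of 5 higher, Il1b and Lcn2, with a median of 1.16, but 33 of the 49 Lcn2 UMIs lay in patch 4, and with TMM scaling 0 were higher. Granulocyte genes had a median of 1.70 with 0 of 6 higher in both sections, since their summed level was 1404 against 332 CPM in section 1 and 183 against 170 CPM in section 2. Without the patches, control adipose spots had 258 CPM of granulocyte genes. Mast cell and complement genes, listed after their values were seen, had 4 of 5 and 3 of 8 genes higher, with medians of 2.19 and 0.97. These counts and medians therefore describe how the genes were picked. Cma1, a chymase of connective tissue mast cells, was at 61.4 against 10.9 CPM in section 1 and 35.1 against 7.69 CPM in section 2, and C3, the central complement component, was at 324 against 76.9 CPM and 355 against 82.8 CPM.

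Genes of other tissues were measured in the same spots, and their part in the results was not tested. With the genotypes pooled, all 7 muscle fiber genes were below the other spots in both sections, as were all 5 cartilage, all 5 bone and all 3 osteoclast genes, with median log2 ratios of -1.14, -1.20, -0.94 and -1.07. In these lists, Col2a1, Ibsp, a bone matrix gene, and the osteoclast protease and phosphatase genes Mmp9 and Acp5 were at least 2-fold lower in both sections. Summed muscle fiber genes still took 19140 CPM of the adipose spots of section 1 and 14356 CPM of those of section 2, led by Myh4, and cartilage genes took 9688 and 9412 CPM, led by Col2a1. This did not hold in every callus. In control of section 1, muscle fiber genes were at 16241 CPM in adipose and 13635 CPM in other spots. In Nf1Postn, bone genes were at 1952 against 1939 CPM in section 1 and at 2537 against 1201 CPM in section 2, and osteoclast genes were at 1718 against 1572 CPM in section 2. A UMI of Ckm and one of Col2a1 was in every adipose spot and in 99.7% and 99.2% of other spots. No gene was called in the tendon, Schwann cell, synovium, keratinocyte or matrix list, with medians of -0.01, -0.16, -0.04, -0.81 and 0.45, and Krt5, Krt14 and Krt1 of skin had 0 UMIs in adipose spots. The list of Nf1 and ERK targets had 0 of 7 genes called, with a median of 0.10, or -0.18 with TMM. These lists are short beside the 2.5% of all genes called higher, and the Schwann cell, synovium and keratinocyte lists had 0 genes and the Nf1 and ERK list 2 with enough UMIs to be called lower.

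Among the genes called lower, those with the lowest ratios were Hapln1, Col2a1, Matn3, Smtnl2, Snorc, Clec3a, Col22a1, Chst11, Mmp13 and Ptch1, with log2 ratios from -1.77 to -1.22. Only Col2a1 among them belonged to the cartilage list. Hapln1, the link protein of cartilage, was at 61.4 against 317 CPM in section 1 and 84.3 against 175 CPM in section 2, and Col2a1, its main collagen, was at 7698 against 32845 CPM and 7480 against 19273 CPM. The control callus accounted for the gap in section 1, where Col2a1 was at 8528.5 against 40406 CPM in control and at 2346 against 2397 CPM in Nf1Postn. In section 2, Col2a1 was lower in adipose than in other spots of both genotypes, at 9824 against 25366 CPM and 2230 against 6837 CPM.

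Levels of fat genes were lower outside the patches, as the choice of spots fixes in part, since a touching adipose spot joins its patch and other adipose spots were left out at all distances. A grid step is 100 µm. In the 72 spots at 1 step, Cfd was at 187 CPM (155 to 225), compared with 983 CPM (874 to 1101) in the patches and 87.4 CPM (67.6 to 111) at 2 steps. Fabp4 was at 2478 CPM in the patches, 913 CPM at 1 step and 536 CPM at 2 steps. Farther than 10 steps away, Cfd was at 22.3 CPM and Fabp4 at 263 CPM. These values are pooled over the 3 callus sections with a patch, whose levels differ. Within each of them Cfd was also lower at 1 step than in its patches, at 218 against 1184.5 CPM in control of section 1, 113 against 529 CPM in control of section 2 and 370 against 1254 CPM in Nf1Postn of section 2. Bglap, osteocalcin, was at 806 CPM in the patches and 4351 CPM at 4 and 5 steps in control of section 1, at 244 and 828 CPM in control of section 2 and at 1624 and 3011 CPM in Nf1Postn of section 2. This did not hold at all distances. In Nf1Postn of section 2, Bglap was at 1480 CPM at 1 step, 1704.5 CPM at 2 steps and 2976 CPM at 3 steps. It was below its patch there at 6 to 10 steps (893 CPM) and farther away (567 CPM). Farther than 10 steps away, control had 1050.5 CPM in section 1 and 2357 CPM in section 2, above its patches. Col2a1 was at 7307 CPM in the patches and 51979 CPM at 6 to 10 steps in control of section 1 and at 7625 and 67685 CPM in control of section 2, but at 1483 and 3200 CPM in Nf1Postn of section 2.

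**Figure D4:**
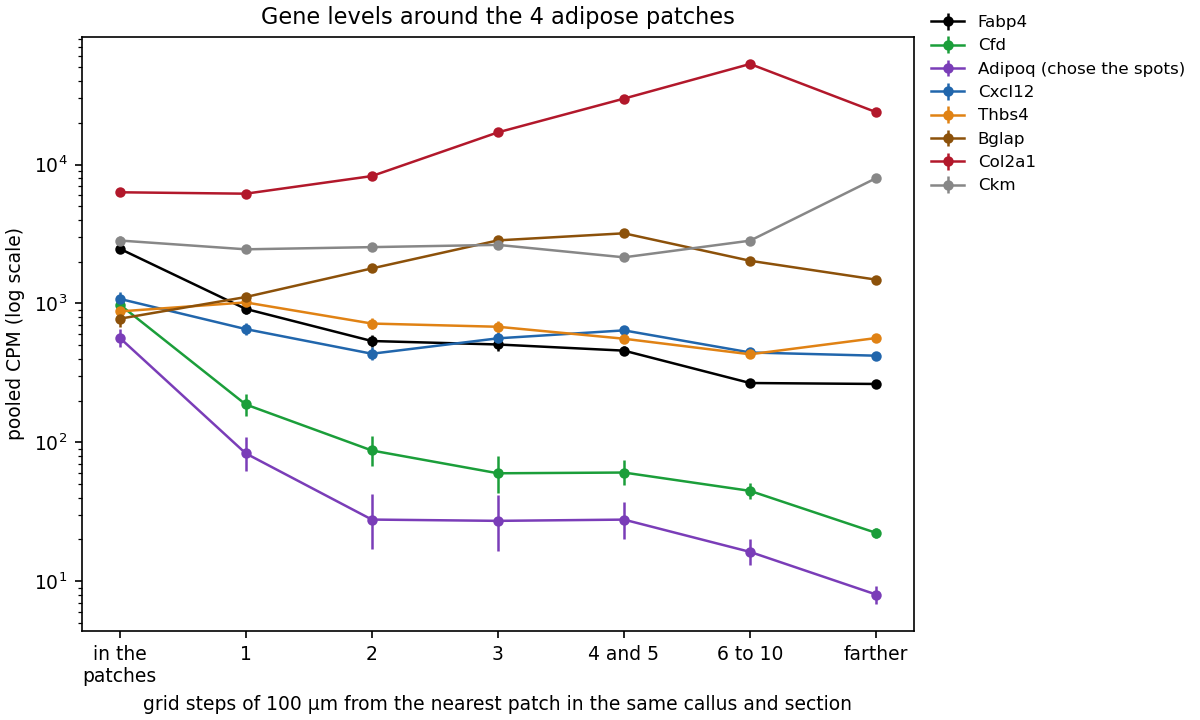
Pooled CPM (log scale) of 8 genes in the 43 spots of the 4 patches and in spots at rising distance from them in grid steps of 100 µm, other adipose spots left out, with exact 95% Poisson intervals. Cfd goes from 983 CPM in the patches to 187 CPM at 1 step and 87.4 CPM at 2 steps, pooled over the 3 callus sections with a patch.

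The patches differed in what lay with the fat. The 10 genes with the largest spread between patches were S100a9, S100a8, Camp and Ltf of neutrophils, Casq1, Cox6a2 and Ryr1 of muscle, Dct of pigment cells, and Lrg1 and Myoc. S100a9 was at 3439 CPM (181 UMIs) in patch 4 and at 151, 17.7 and 112 CPM in patches 1, 2 and 3, so that patch 4, of 6 spots, held 181 of the 251 UMIs of S100a9 in adipose spots. Ltf had 52 UMIs in patch 4 and 0 in the other patches, S100a8 had 64 and at most 3, and Camp had 84 and at most 2. Summed granulocyte genes were at 7999.8 CPM in patch 4 and at 205, 35.3 and 173 CPM in patches 1 to 3. Patch 1 held muscle genes, with 41792 CPM of muscle fiber genes against 10046, 7889 and 4446 CPM in patches 2 to 4 and 13635 CPM in the other control spots of its section. Casq1, a calcium store protein of muscle, was at 1739 CPM in patch 1 and 19.0 CPM in patch 4.

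Patch 2, the only one in the Nf1Postn callus, was high in nerve and pigment genes. Schwann cell genes were at 1095 CPM there, against 38.0 to 108 CPM in the 3 control patches, and the other Nf1Postn spots of its section had 416 CPM. Other control spots had 124 CPM in section 1 and 123 CPM in section 2. Dct had 57 UMIs in patch 2 (1006 CPM; 762 to 1304) and 2 in the 3 control patches together, and these 57 were all of its UMIs in the Nf1Postn adipose spots of section 2. Tyr, the tyrosinase gene, had 9 UMIs in patch 2 and 0 in all other adipose spots, and the melanocyte list, written after its values were seen, had 1 of 5 genes past the minimum. Myoc, the myocilin gene, was at 742 CPM in patch 2 and at 86.4, 40.7 and 38.0 CPM in patches 1, 3 and 4. The values of patch 2 belong to 1 place in 1 section. Dct also differed between the genotypes away from adipose spots. Other spots had 31.1 CPM in Nf1Postn against 1.29 CPM in control of section 1 and 23.4 against 2.11 CPM in section 2.

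The patches also ranked differently for fat genes. Cfd was at 1372 CPM (1144 to 1632) in patch 1, 1254 CPM (979 to 1581) in patch 2, 855 CPM (624 to 1144) in patch 4 and 529 CPM (395 to 693) in patch 3. Scd1 was at 713 and 794 CPM in patches 1 and 2 and at 266 and 112 CPM in patches 4 and 3. Patches 3 and 4 thus had less Cfd and Scd1 than patches 1 and 2, although the Cfd interval of patch 4 overlapped those of patches 1 and 2. Among the genes on which the spots were chosen, Adipoq was at 518, 565, 559 and 665 CPM in patches 1 to 4, with intervals that overlapped. Plin1, also used in the choice, was at 497, 477, 274 and 247 CPM. No conclusion is drawn from these 2 genes. Patches 3 and 4 had more Aqp1, at 1627 and 1140 CPM against 443 and 583 CPM in patches 1 and 2, but the endothelial list did not split this way. Its sum was 1005, 1924, 2724.5 and 1900 CPM in patches 1 to 4, and Cdh5 was highest in patch 2, at 653 CPM. Lrg1, a gene of endothelium and neutrophils, was at 732 and 589 CPM in patches 3 and 4 and at 151 and 35.3 CPM in patches 1 and 2.

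**Figure D5:**
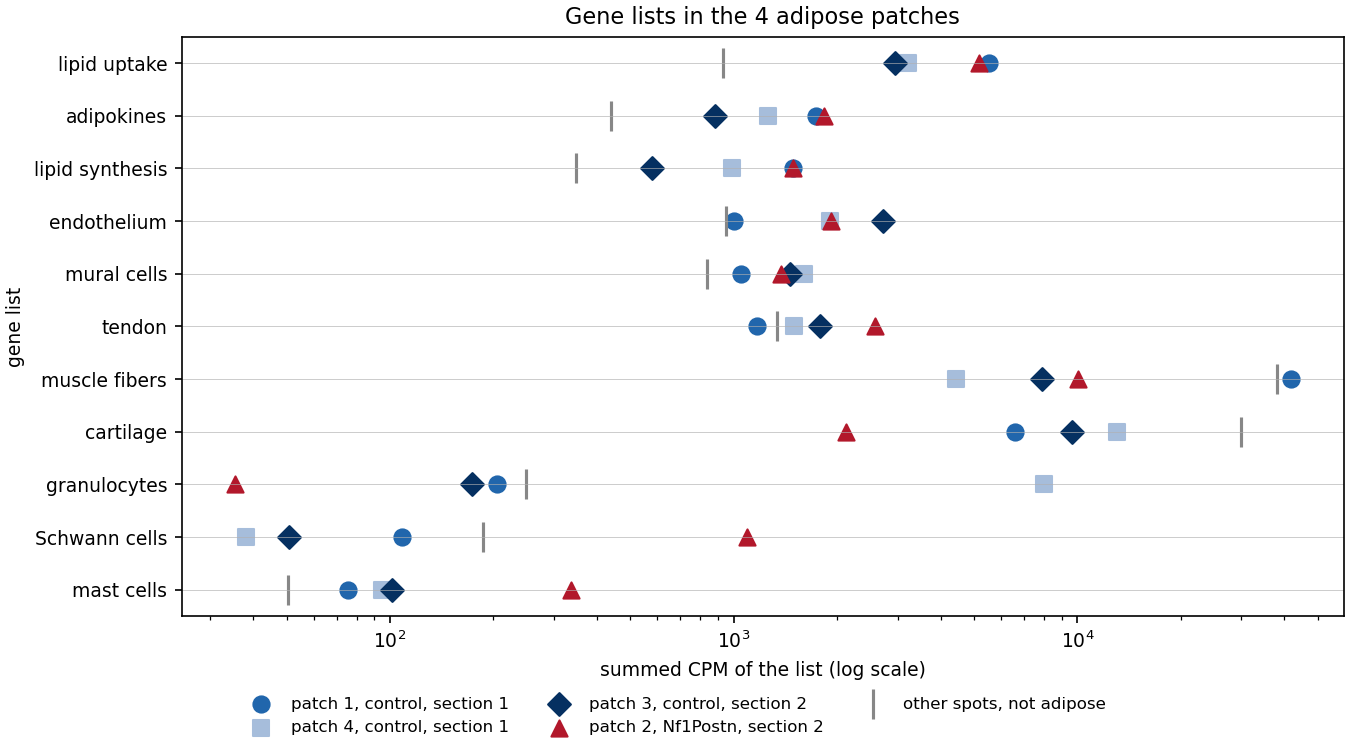
Summed CPM (log scale) of 11 gene lists in the 4 patches of adipose spots and in the other kept spots. Granulocyte genes are highest in patch 4 (7999.8 CPM), muscle fiber genes in patch 1 (41792 CPM) and Schwann cell genes in patch 2 (1095 CPM).

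Between the genotypes, within adipose spots, 19 of 3111 genes (0.611%) were at least 2-fold higher in Nf1Postn in both sections and 39 (1.25%) were at least 2-fold lower. A gene entered with 20 or more UMIs over both genotypes in each section, and the Nf1Postn spots of section 1, 17 of which held under 3 UMIs of the chosen genes, had 48162 UMIs in all against 310136 in control. A gene could thus pass this minimum on its control UMIs alone, which bears on the lower side more. With 10 or more UMIs expected in Nf1Postn in each section at equal levels, a minimum added after seeing the data, 3 of 745 genes were higher (Hbb-bs, Myh1 and Tnnt3) and 8 lower (C1qtnf3, C3, Col2a1, Cxcl12, Hp, Lrg1, S100a11 and Sfrp2). The pooled interval of the ratio lay beyond equal levels for 19 of the 19 and for 28 of the 39 genes. With TMM scaling 9 genes were higher and 74 lower, so that 10.8% of the genes called were higher in place of 32.8%. None of the 22 adipocyte genes past the minimum was among the genes called, but 22 genes are few beside shares of 0.611% and 1.25%. Their median log2 ratio was -0.05, beside -0.05 for all genes. Hp, 10.4-fold higher in adipose spots but in none of these lists, was called lower. Cfd had a log2 ratio of -1.86 in section 1 and of 0.91 in section 2, and Fabp4 one of -1.04 and of 0.35, so neither had the same direction in both sections.

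Among the genes called higher, the 8 with the largest ratios in Nf1Postn adipose spots were Hbb-bs, Hba-a2, Cilp2, Chad, Hebp1, Slc35e4, Klf9 and Cilp. Hbb-bs, a globin gene of red cells, was at 1661 CPM (1317 to 2067) against 145 CPM (106 to 194) in control in section 1 and at 671 (511 to 866) against 122 CPM (78.1 to 181) in section 2. Other spots differed in the same direction, at 932 against 91.6 CPM in section 1 and 886 against 164 CPM in section 2. The erythroid list had 2 of 2 genes called higher, both globins, and the muscle fiber list 2 of 7, Myh1 and Tnnt3. Myh1 was at 4381 against 1428 CPM and 2446 against 1194 CPM, and in other spots at 8060 against 1401 CPM and 9545 against 3870 CPM. Chad, chondroadherin, was at 374 against 158 CPM in section 1 and 728 against 163 CPM in section 2, and Cilp2 and Cilp, matrix genes of cartilage and tendon, were 5.35-fold and 2.64-fold higher. Other spots differed in the same direction for Cilp2, at 60.6 against 44.1 CPM and 141 against 63.6 CPM, and for Cilp, at 231 against 71.2 CPM and 207 against 153 CPM. For Chad, other spots differed in the opposite direction in section 1, at 171 against 326 CPM, and in the same direction in section 2, at 361 against 297 CPM. Hebp1, a heme binding protein gene, was at 208 against 51.6 CPM and 182 against 71.1 CPM, and at 45.1 against 32.4 CPM and 32.5 against 37.5 CPM in other spots.

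Among the genes called lower, the 8 with the smallest ratios were S100a9, Ppp1r14a, Lrg1, C1qtnf3, Lrrc8a, Matn3, Hp and Sfrp2. S100a9 was at 62.3 against 709 CPM in section 1 and 56.9 against 117 CPM in section 2, and 181 of its 243 control UMIs lay in patch 4. Outside the patches S100a9 was at 140 CPM in control and 88.2 CPM in Nf1Postn adipose spots. Other spots had 216 CPM in Nf1Postn and 122 CPM in control of section 1, but 45.4 and 65.7 CPM in section 2. Hp was at 41.5 against 397 CPM in section 1 and 137 against 681 CPM in section 2, with a pooled log2 ratio of -2.30 (-3.19 to -1.53). Other spots differed in the same direction for Hp, at 13.7 against 59.7 CPM and 8.95 against 41.6 CPM. Lrg1 was at 41.5 against 332 CPM and 91.0 against 533 CPM, and in other spots at 74.9 against 102 CPM and 35.6 against 80.0 CPM. For these 3 genes the value in the Nf1Postn adipose spots of section 1 rested on 2 or 3 UMIs, and Matn3 had 0, Ppp1r14a 1 and Lrrc8a 2 there. Sfrp2, a secreted WNT modulator of fibroblasts, had the most UMIs, at 498 CPM (319 to 741) against 1444.5 CPM (1314 to 1585) in section 1 and 296 (193 to 433) against 1707 CPM (1529 to 1899) in section 2. Other spots differed in the same direction for Sfrp2, at 242 against 804 CPM and 113 against 761 CPM. Cxcl12 was also called lower, at 436 against 967 CPM and 535 against 1321 CPM, as was C3, at 62.3 against 364 CPM and 137 against 452 CPM. Both were lower in Nf1Postn in other spots too, Cxcl12 at 285 against 517 CPM and 217 against 474 CPM. In adipose spots with 3 or more, 2 and 1 UMIs of the 3 genes, Hp was at 492, 36.3 and 23.3 CPM. Cxcl12 was at 1070, 562 and 326 CPM in these classes. Since 61 of 75 control but 15 of 43 Nf1Postn spots had 3 or more, class and genotype cannot be told apart here.

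Nf1 itself had 40 UMIs in the adipose spots. Its level was 67.7 CPM (41.9 to 104) in control and 41.5 CPM (5.03 to 150) in Nf1Postn of section 1 and 71.1 (38.9 to 119) and 34.1 CPM (7.04 to 99.8) in section 2. The pooled log2 ratio of -0.91 had an interval from -2.62 to 0.45, so a difference was not detectable at this depth. Fewer fat cells in a spot and less RNA per fat cell cannot be told apart in any of these comparisons.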

How the data were processed

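The authors made the deposited tables with Space Ranger (1.3.0 per the submitters' processing notes, which name mm39), from Visium libraries of mouse probe pairs for formalin-fixed tissue, and exported them as counts of UMIs per gene and spot. These deposited values have the unit of expected counts, since 9 entries join several Ensembl IDs and some values are not whole. A nameless entry (11.6 UMIs in section 1 and 6.8 in section 2) was dropped, which left 19430 named genes, and section totals were 17026501 and 18108049.5 UMIs. The genotype of each spot came from the deposited genotype column, which left 5 spots without one. How its border was drawn is not given in the sources used here.

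Counts were pooled over spots and scaled to CPM, with exact Poisson intervals for levels and exact binomial intervals for shares. With 1 mouse per genotype, no test was run. A gene was called where the ratio of pooled CPM was at least 2-fold in the same direction in both sections, above the minimum counts given in the text. The chosen spots, the 28 gene lists (183 genes, 181 in the tables) and the rules were chosen with earlier results of these data known. Named genes were the 15 highest and 10 lowest ratios, the 8 largest each way between genotypes, and the 10 with the largest spread among patches (50 or more UMIs), beside genes named within lists. Lists of mast cells, complement and melanocytes were added after values were seen. Patches were sets of 5 or more touching chosen spots. Alternatives changed the share of spots chosen, the ranking, the depth, the scaling (TMM from edgeR 4.0.16 under R 4.3.3, or median of ratios) and the minimum counts. Scripts, tested on simulated data, used Python 3.11.15, numpy 2.4.6, scipy 1.17.1, pandas 2.3.3 and matplotlib 3.10.9.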

Additional observations from a re-analysis of the deposited data

Results flagged for a closer look

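For 5 genes given here, the log2 ratio of adipose to other spots had one sign in control and the opposite sign in Nf1Postn in both sections. They are not all such genes, since Slc35e4, Klf9, Ppp1r14a and Lrrc8a among the named genes also had opposite signs in both sections. The difference between genotypes was not tested. The 5 genes were singled out among those with opposite signs, and each genotype is 1 mouse. Dlk1, a preadipocyte gene, was at 1.13 and 1.06 in control of sections 1 and 2 and at -0.10 and -0.076 in Nf1Postn, from 22, 17, 7 and 7 UMIs. Bglap was at -1.18 and -2.40 in control and at 0.050 and 1.27 in Nf1Postn. Dmp1, an osteocyte gene, was at -1.51 and -1.67 in control and at 0.16 and 1.45 in Nf1Postn. Col22a1, a collagen of tissue junctions, was at -1.55 and -2.68 in control and at 0.022 and 0.57 in Nf1Postn, where it had 6 and 15 UMIs. Chad was at -1.04 and -0.87 in control and at 1.13 and 1.01 in Nf1Postn.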

How the results depend on the processing

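The log2 ratio of the control to the Nf1Postn share of adipose spots, 0.42, stayed above 0 under all alternatives run and was 0.92 with spots ranked after thinning to 1000 UMIs, which kept 66 of the 118 spots, and 1.64 for spots with 3 or more UMIs of the 3 genes, an alternative chosen after seeing the data. With either section left out it ranged from 0.04 to 0.72. The share of adipose spots beside another, 57.6%, was 72.0% with Cfd in place of Cidec in the ranking, 42.4% with thinning, 72.9% for neighbors within 2 steps and 69.7% for 3 or more UMIs, and ranged from 52.8% to 61.5% with a section left out. The median log2 ratio of adipocyte genes, 1.03, was 1.15 for the top 1% of spots, 0.88 for the top 4%, 1.14 with Cfd in the ranking, 0.80 with thinning, 0.76 with TMM, 0.84 with the median of ratios and 0.63 for the mean of log2(CPM + 1), and ranged from 0.98 to 1.09 with a section left out. The 296 genes higher in adipose spots became 128 with the top 4%, 173 with thinning, 121 with TMM, 164 with the median of ratios and 717 with no minimum count. The 16 lower genes became 0 with the top 4%, 8 with the top 2% of each section, 1 with thinning, 42 with TMM, 28 with the median of ratios, 105 with no minimum and 6 with a minimum of 100 UMIs. The 58 genes that differed between genotypes became 105 with the top 4%, 585 with no minimum, 8 with a minimum of 100 UMIs and 11 with 10 or more UMIs expected in Nf1Postn, a minimum chosen after seeing the data. With 1 section left out, a gene had to pass in 1 section only, and these 3 counts ranged from 939 to 1098, from 68 to 160 and from 457 to 871. The cause of the other shifts was not tested. All 734 values of 59 single genes under the alternatives kept their direction, which is no sign of stability, since most of these genes were named for a 2-fold ratio of one direction in both sections. The genotype comparison was not run for the top 1% of spots or for 3 or more UMIs, which left fewer than 10 adipose spots in Nf1Postn of section 1. No paired analysis was possible because no test was run with 1 mouse per genotype. Depth limits the Nf1Postn spots of section 1 most, whose 48162 UMIs make 1 UMI worth 20.8 CPM.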

Other observations

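Spots under 1000 UMIs were left out of the choice, 128 in control and 328 in Nf1Postn. In control they held 3 UMIs of Adipoq and 6 of Cfd, or 67.5 CPM of Cfd (24.8 to 147), beside 38.0 CPM in kept spots that were not chosen. In Nf1Postn they held 3 UMIs of Adipoq and 7 of Cfd, or 32.5 CPM (13.0 to 66.9), beside 17.2 CPM. Fabp4 was at 439 and 348 CPM in these spots of control and Nf1Postn, and 45.7% of the Nf1Postn spots under 1000 UMIs lay at the rim of the tissue.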
